A study of Mus musculus with 28 samples.

Results

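Cells that had switched on a GFP reporter by day 12 of reprogramming were compared with cells of the same day that had not. Both fractions were sorted as negative for Thy1, a surface protein of fibroblasts, and positive for SSEA1, a carbohydrate antigen of mouse pluripotent cells, so that GFP was the sorting difference between them. The samples were found by their titles and labels: 2 of the 28 samples of the series, each measured on 1 microarray, among the 24 arrays of 1 design (the other 4 samples, on another design, were not used here). The GFP-positive sample is called GFP+ below and the GFP-negative one SSEA1+.

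All samples derived from mouse embryonic fibroblasts (MEFs), taken from mid-gestation embryos of a C57BL6/129 strain with a Rosa26-M2rtTA allele and a doxycycline-inducible OKSM cassette, which encodes Oct4 (gene symbol Pou5f1), Klf4, Sox2 and Myc. The alleles were present as 1 copy each (het/het) or 2 (ho/ho). Per the labels' protocols, reprogramming took place with doxycycline in KODMEM-based serum medium with LIF at 1000 U/ml. MEFs (2 arrays), SSEA1+ cells of days 3 and 6 (2 arrays each) and day 9 (1 array), and established iPS cells (3 arrays, labelled GFP-positive and preplated to remove feeder cells) served as points of reference. The labels do not name the gene that drives GFP, the copy number of a sample or the meaning of the replicate names M2 and M3, and both compared samples are named M2.

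The cassette factors first repress the fibroblast programme and switch on epithelial genes, and a minority of cells later activate their own pluripotency network, in which Oct4, Sox2, Nanog and Esrrb sustain each other without the cassette. Naive pluripotent cells also transcribe germline genes that DNA methylation and repressor complexes keep silent in body cells, and they hold developmental regulators such as the Hox clusters silent. Levels are given as log2 signals, so that a difference of 1 is a 2-fold change.

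Of 11807 genes, 848 (7.18%) differed between GFP+ and SSEA1+ cells by at least 2-fold with a limma adjusted p under 0.05, and such genes are called higher (rose) or lower (fell) here. GFP+ cells were higher in 290 genes (2.46%) and lower in 558 (4.73%), so that 34.2% of the called genes were higher. Counts of called genes in the lists below are to be read beside these shares. An unadjusted p under 0.05 was reached by 2444 genes. The median difference over all genes was 0.03 and the median SE of a difference 0.25. As each fraction had 1 array, its spread was taken from the replicated groups and assumed to be like theirs. Whether the replicates of a group were different animals or cultures is not given, and the p-values therefore reflect array-to-array spread alone, which could be technical. Subtracting each array's median shifted all differences by 0.10 and gave 867 called genes, 389 higher and 478 lower, or 44.9% higher.

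**Figure D1:**
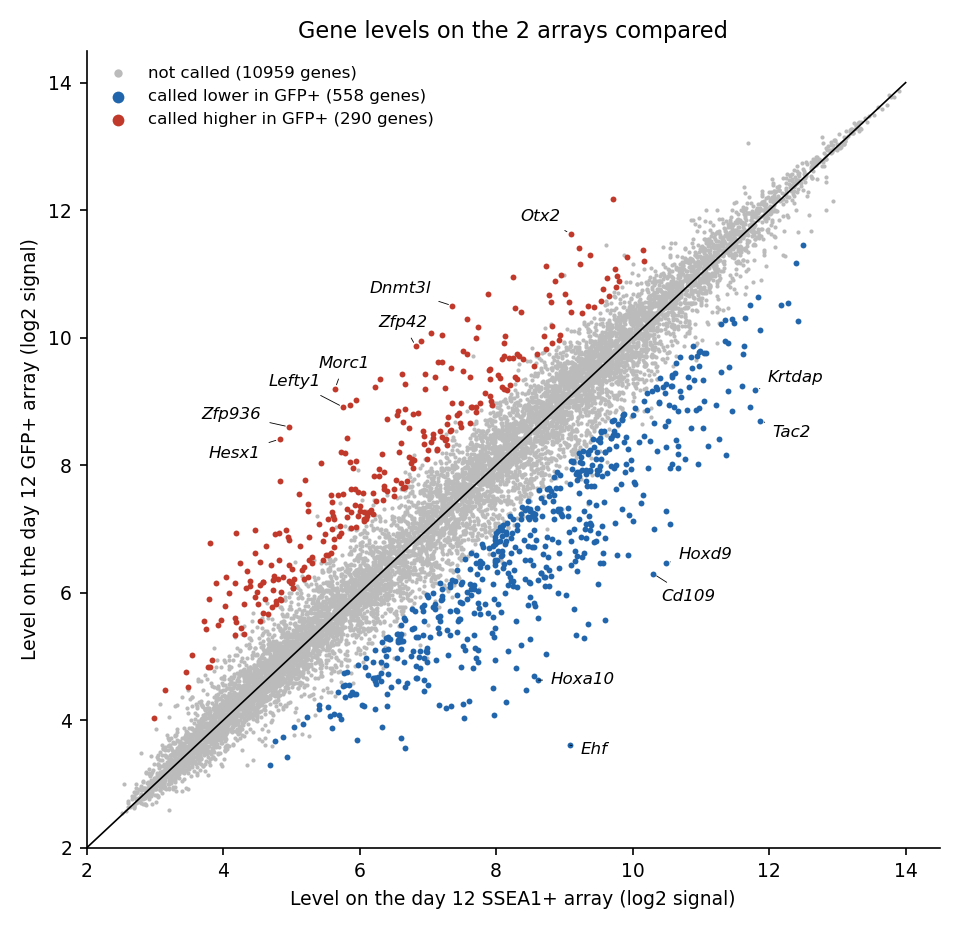
Level of each gene on the day 12 SSEA1+ array (x axis, log2 signal) and on the day 12 GFP+ array (y axis, log2 signal), with the line of equal levels. The 290 genes called higher in GFP+ are red and the 558 called lower blue, and Ehf lies farthest below the line.

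The compared arrays were alike in RNA quality. The 3′ minus 5′ signal of Gapdh, which grows with RNA degradation, was 0.83 on the SSEA1+ and 0.73 on the GFP+ array, that of Actb 1.02 and 0.99, and the 18S rRNA signal 11.51 and 11.69. The array of day 6 Thy1+ cells named M2 stood apart, with a Gapdh value of 1.78 against 0.58 to 1.11 on the other arrays. Without it, or without the other array of its group, 991 genes were called in place of 848, all 848 among them.

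Of 12 markers of pluripotent cells, 11 were measured. Their mean level was 4.38 in MEFs, 8.51 on the SSEA1+ array, 10.54 on the GFP+ array and 11.01 to 11.16 on the iPS arrays, so that GFP+ cells lay below the iPS arrays by less than 1 and above SSEA1+ cells by more than 1. The 9 measured of 12 fibroblast markers averaged 11.8 in MEFs, 7.63 in SSEA1+ cells, 6.80 in GFP+ cells and 6.27 to 7.20 on the iPS arrays. Lum and Postn were below 5.09, the 25th percentile of gene levels, in GFP+ cells. The 5 macrophage markers averaged 4.86 and 4.75, with Ptprc, Lyz2 and Tyrobp dim in GFP+ cells. Fewer cells of a type and less RNA per cell cannot be told apart in such bulk samples.

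Of 28 measured core regulators of the pluripotency network, 16 were called higher in GFP+ cells and all 28 differences were above 0, with a median of 1.3 against 0.03 over all genes. Zfp42 (Rex1), a marker of naive cells, stood at 3.17 and 3.14 on the MEF arrays, 3.36 in day 9 SSEA1+ cells, 6.82 in day 12 SSEA1+ cells, 9.87 in GFP+ cells and 10.39, 10.98 and 10.66 on the iPS arrays. It rose by 3.05 ± 0.32 (SE; 8.30-fold, adjusted p = 3.36e-05), and its SSEA1+ level lay between the MEF and iPS arrays without touching either. Esrrb, a nuclear receptor of the naive network, went from 7.05 in SSEA1+ cells to 10.08 in GFP+ cells, with 4.24 and 4.38 in MEFs and 11.14, 11.61 and 11.58 in iPS cells. That is a rise of 3.03 ± 0.41 (SE; adjusted p = 0.000247), which left GFP+ cells below each iPS array. A dimmer probe set of Esrrb differed by -0.36.

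Tbx3, a T-box factor that supports self-renewal, read 8.64 and 8.55 on the MEF arrays, 7.20 in SSEA1+ cells, 10.04 in GFP+ cells and 10.59, 10.55 and 10.64 on the iPS arrays. SSEA1+ cells were thus below both the MEF and the iPS arrays, and the rise of Tbx3 was 2.84 ± 0.21 (SE; adjusted p = 1.64e-06). Klf2, a factor of the naive state, had the same course, with 10.34 and 10.08 in MEFs, 6.96 in SSEA1+ cells, 9.20 in GFP+ cells and 10.69 to 11.01 on the iPS arrays (difference 2.24 ± 0.38 (SE), adjusted p = 0.00145). Further called regulators were Tcl1 (2.47), a coactivator of Akt, Utf1 (2.27), a chromatin-bound factor of pluripotent cells, Mybl2 (1.62), Tcf15 (1.59), Foxd3 (1.37), Tcea3 (1.35), Rest (1.31), Sp5 (1.29) and Nr0b1 (1.05). Nr0b1 was no longer called after quantile normalization, and Rest no longer with the mean of its probe sets.

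Not every regulator was among them. Nanog read 4.88 and 5.05 in MEFs, 10.62 in SSEA1+ cells, 11.49 in GFP+ cells and 11.49 to 11.99 on the iPS arrays, a difference of 0.87 ± 0.56 (SE; adjusted p = 0.46). Sall4 went from 11.49 to 12.12 (0.62 ± 0.63 (SE), adjusted p = 0.701) and Tfcp2l1 from 8.58 to 9.72 (1.14 ± 0.47 (SE), adjusted p = 0.167). Both Nanog and Sall4 were already far above the MEF arrays in SSEA1+ cells. Rex2 stood at 4.03 and 4.18 in the compared fractions and at 7.05, 8.18 and 8.28 on the iPS arrays. For Rex2, GFP+ cells were thus near the MEF level (3.82 and 3.93). Klf5 read 5.05 and 5.50, with 7.03 to 7.94 on the iPS arrays.

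The factors of the cassette are read by probe sets that may also bind its transcripts, and the share of the cassette in their signal was not tested. Pou5f1 read 5.36 and 5.07 in MEFs, 6.85 in day 9 and 8.86 in day 12 SSEA1+ cells, 10.89 in GFP+ cells and 11.77, 11.89 and 11.91 on the iPS arrays. It rose by 2.04 ± 0.29 (SE; adjusted p = 0.000414) between the compared fractions and lay below every iPS array in GFP+ cells. Sox2 had the same difference with a wider error, from 8.95 to 10.99 (2.04 ± 0.60 (SE), adjusted p = 0.047), and 10.66 to 11.48 on the iPS arrays. Its call was lost after quantile normalization, with the replicate block, in the fit without Thy1 fractions and MEFs, and when an MEF, day 3 Thy1+, day 3 Thy1-negative or day 6 SSEA1+ array or the iPS array 1-3 or 1-6 was left out. Klf4 differed by 0.93 ± 0.24 (SE; adjusted p = 0.025), under the 2-fold minimum. Myc fell, from 9.59 to 8.21 (-1.39 ± 0.28 (SE), adjusted p = 0.00485), and was lower still on the iPS arrays, at 5.13 to 5.62.

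Of 34 measured markers and effectors of pluripotency, 19 were called higher and 2 lower, with a median difference of 1.35. Morc1, an ATPase that silences transposons in the germline, had 3.41 and 3.61 in MEFs, 4.14 in day 9 SSEA1+ cells, 5.64 in day 12 SSEA1+ cells, 9.20 in GFP+ cells and 9.26, 9.65 and 9.28 on the iPS arrays, a rise of 3.56 ± 0.23 (SE; 11.8-fold, adjusted p = 7.83e-07). GFP+ cells were just under the lowest iPS array and SSEA1+ cells nearer to MEFs. Dppa3 (Stella), a maternal factor that protects methylation marks, went from 5.86 to 8.94 (3.09 ± 0.28 (SE), adjusted p = 6.62e-06) and stood at 9.52 to 9.99 on the iPS arrays. The Nodal antagonist Lefty1 went from 5.76 to 8.91 (3.15 ± 0.33 (SE)) and the TGF-beta ligand Gdf3 from 5.94 to 9.03 (3.09 ± 0.45 (SE)), while Nodal itself differed by 1.09 and lost its call with the mean of its probe sets.

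Some of these genes were above their MEF level in the GFP-negative fraction too. Lin28a, an RNA-binding protein that blocks let-7 maturation, read 4.72 in day 9 and 9.57 in day 12 SSEA1+ cells, a rise of 4.85, and 10.76 in GFP+ cells, a further rise of 1.19 ± 0.24 (SE; adjusted p = 0.00541) to just under the iPS arrays (10.85 to 11.07). Dppa2, Dppa4 and Trap1a were likewise called higher on day 12 than on day 9 in SSEA1+ cells (by 4.95, 2.98 and 3.68) and higher again in GFP+ cells (by 2.41, 2.81 and 2.72). The differences share the day 12 SSEA1+ array, whose error enters each pair with opposite signs. Between days 9 and 12, 68 genes (0.576%) were called in SSEA1+ cells, 60 higher (0.508%) and 8 lower (0.0678%). Without either day 6 Thy1+ array 113 were called (88 higher and 25 lower), without the iPS array 1-3, 102 (81 and 21), and without a MEF or day 3 array the lower ones numbered 4 or 5. Fgf4, Fbxo15 and Slc7a3 had reached 10.89, 10.00 and 11.47 in SSEA1+ cells and differed by 0.95, 0.39 and -0.01 from GFP+ cells, none of them called.

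The markers called lower were Fut9 and Cd9. Fut9 was among the dimmest 25% of genes and was not tested when those were left out. Fut9, the fucosyltransferase that makes the SSEA1 antigen, read 3.24 and 3.48 in MEFs, 6.41 in SSEA1+ cells, 4.73 in GFP+ cells and 7.93, 7.63 and 7.03 on the iPS arrays. It fell by 1.68 ± 0.33 on the log2 scale (SE; adjusted p = 0.0037), so that GFP+ cells, sorted as SSEA1-positive, held less of its transcript than SSEA1+ cells and iPS cells. The tetraspanin Cd9 went from 10.39 to 8.99 (-1.40 ± 0.40 (SE), adjusted p = 0.0401), below each iPS array (11.29 to 11.70), a call lost with the replicate block and without any of several arrays. Thy1 had 8.17 and 7.01 (-1.17 ± 0.37 (SE), adjusted p = 0.0657) and Epcam 10.87 and 11.49.

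**Figure D2:**
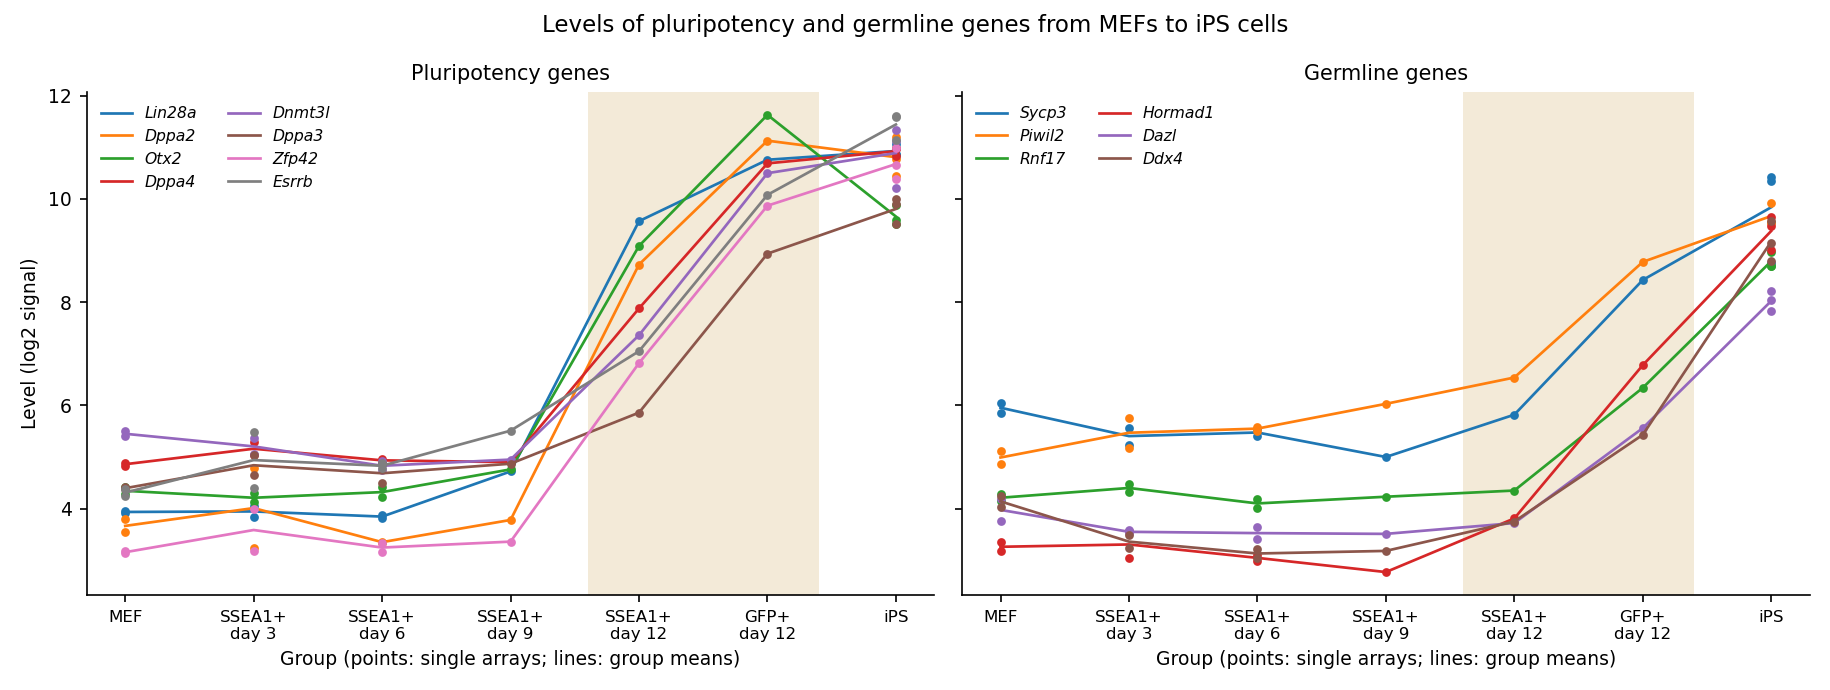
Levels (y axis, log2 signal) of pluripotency genes (left) and germline genes (right) in MEFs, SSEA1+ cells by day, GFP+ cells and iPS cells, with a point per array and lines through group means; the compared fractions are shaded. Pluripotency genes such as Lin28a and Zfp42 were already above their MEF level in day 12 SSEA1+ cells. Of the germline genes shown, Ddx4, Dazl and Hormad1 were not above 3.81 there, while Sycp3, Piwil2 and Rnf17 were.

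Of 18 measured genes of the formative and primed epiblast, the stages after the naive state, 8 were called higher and 12 had an unadjusted p under 0.05, with a median of 1.31. Otx2, which drives the exit from the naive state, read 4.28 and 4.41 in MEFs, 4.76 in day 9 and 9.09 in day 12 SSEA1+ cells, 11.63 in GFP+ cells and 9.51, 9.88 and 9.59 on the iPS arrays. The rise was 2.55 ± 0.29 (SE; adjusted p = 5.7e-05), and GFP+ cells lay 1.75 above the highest of the other 23 arrays. Eomes, a T-box factor of mesendoderm and trophoblast, went from 4.46 to 6.99 (2.53 ± 0.20 (SE), adjusted p = 2.64e-06) with 6.06 to 6.35 on the iPS arrays. The Wnt effector Lef1 went from 4.76 to 6.92 and the kinase gene Pim2 from 8.37 to 10.41, also above every iPS array (highest 6.54 and 8.09).

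Car14, a carbonic anhydrase, went from 7.91 to 9.35, with 6.55 to 7.08 on the iPS arrays. Smaller called rises were those of Foxd3 (1.37), Mixl1 (1.35) and Zic2 (1.27), each highest in GFP+ cells when set beside the SSEA1+ and iPS arrays (6.38, 5.54 and 9.66). Fgf5, the common primed marker, was near background at 5.37 and 5.87 (adjusted p = 0.285), and Pou3f1 read 6.24 and 6.38. Without the dimmest 25% of genes 4 epiblast genes were called.

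Of 26 measured germline genes, 12 were called higher and 24 differences were above 0, with a median of 0.97. Without the dimmest 25% of genes 7 were called. Ddx4 (Vasa), an RNA helicase of germ cells, read 4.04 and 4.24 in MEFs, 3.75 in SSEA1+ cells, 5.43 in GFP+ cells and 8.80, 9.58 and 9.14 on the iPS arrays. It rose by 1.67 ± 0.29 (SE; adjusted p = 0.00149), with SSEA1+ cells below the MEF arrays and GFP+ cells far below the iPS arrays. Hormad1, a protein of the meiotic chromosome axis, went from 3.81 to 6.78 (2.97 ± 0.30 (SE), 7.85-fold, adjusted p = 1.78e-05) and stood at 9.02 to 9.65 on the iPS arrays.

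Dazl, a translational regulator of germ cells, read 3.72 and 5.56 (1.84 ± 0.25 (SE), adjusted p = 0.000247) against 7.82 to 8.21 on the iPS arrays (other probe set 0.37), and Rnf17, a Tudor protein, 4.35 and 6.34 against 8.70 to 8.97. For Sycp3, a protein of the synaptonemal complex, the levels were 5.82 and 8.43 (2.60 ± 0.56 (SE), adjusted p = 0.00751), with 8.75, 10.34 and 10.43 on the iPS arrays. The piRNA factor Piwil2 went from 6.54 to 8.78, the cohesin subunits Smc1b from 5.58 to 7.53 and Stag3 from 6.36 to 7.62, and Dmrt1 from 5.59 to 7.0. In all of these GFP+ cells lay below each iPS array. The X-linked homeobox gene Rhox5 differed in that respect: it went from 8.25 to 10.95 (2.71 ± 0.39 (SE)), above the iPS arrays (9.45 to 10.25). Tex11 (3.55 and 3.88), Dnd1 (4.56 and 4.69) and Stk31 (3.97 and 4.84) were not called, although all were called higher in iPS cells than in MEFs.

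The germline list shared a short sequence that played no part in its choice. RefSeq promoter windows (build GRCm38.p6) were found for 9430 of the 11807 genes and for 19 of the 26 germline genes. The 6 letters CACGTG, the core of an E-box and the same on both strands, occurred in the 250 bases upstream of the start in 871 of the 9430 genes (9.24%) and in 10 of the 19 germline genes (52.6%). It was in 4 of the 8 germline genes called higher that had a window (50.0%) and in 6 of the 11 not called (54.5%), so its presence did not separate them. The stretches around it in the 4 called genes are shown to let the flanking bases be compared, 5′ to 3′ on the gene's strand, with the motif in capitals.
Ddx4 (minus strand, chr13:112652311-112652364): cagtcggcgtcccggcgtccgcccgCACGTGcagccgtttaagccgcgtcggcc
Hormad1 (plus strand, chr3:95559595-95559650): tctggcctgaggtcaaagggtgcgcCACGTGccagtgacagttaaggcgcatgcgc
Stag3 (plus strand, chr5:138280314-138280369): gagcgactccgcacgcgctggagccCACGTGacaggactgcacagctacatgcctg
Sycp3 (plus strand, chr10:88459498-88459553): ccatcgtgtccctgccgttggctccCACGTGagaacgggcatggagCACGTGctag

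The motif lay 29 bases before the start of Ddx4, 57 before that of Hormad1, 64 before that of Sycp3, which held it again within the stretch shown, and 170 before that of Stag3. Over all genes called, it was in 12.1% of those higher and 6.62% of those lower in GFP+ cells. The octamer ATGCAAAT, to which Oct4 binds, was searched for on both strands of the same windows and found in 1.79% of all genes, 2.33% of the genes called higher (5 of 215, Zfp42 and Pim2 among them) and 2.51% of those called lower. Both searches describe these letters in these windows and do not show binding.

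Among genes of DNA methylation, Dnmt3l, a cofactor of de novo methylation, had the clearest rise, from 7.36 to 10.50 (3.14 ± 0.39 (SE), adjusted p = 0.000123), with 10.22, 11.12 and 11.33 on the iPS arrays and 4.95 in day 9 SSEA1+ cells. GFP+ cells thus lay within the iPS range. The de novo enzymes Dnmt3a (9.61 and 11.45) and Dnmt3b (9.88 and 11.29) had wider errors and were not called (adjusted p = 0.218 and 0.179). Dnmt1, the maintenance enzyme, read 9.85 and 9.73. Mbd2, a reader of methylated DNA, fell from 10.09 to 8.36 (-1.73 ± 0.37 (SE), adjusted p = 0.00666). In all, 1 of the 15 genes of this list was called higher and 1 lower (6.67% each, against 2.46% and 4.73% of all genes). Without either day 6 Thy1+ array or in the fit of SSEA1+, GFP+ and iPS groups 3 were called higher, and 2 with the mean of probe sets. Of 32 Polycomb and chromatin regulators, 1 was called higher (3.12%, near the 2.46% of all genes). It was Mtf2, a Polycomb accessory protein, from 10.15 to 11.38.

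**Figure D3:**
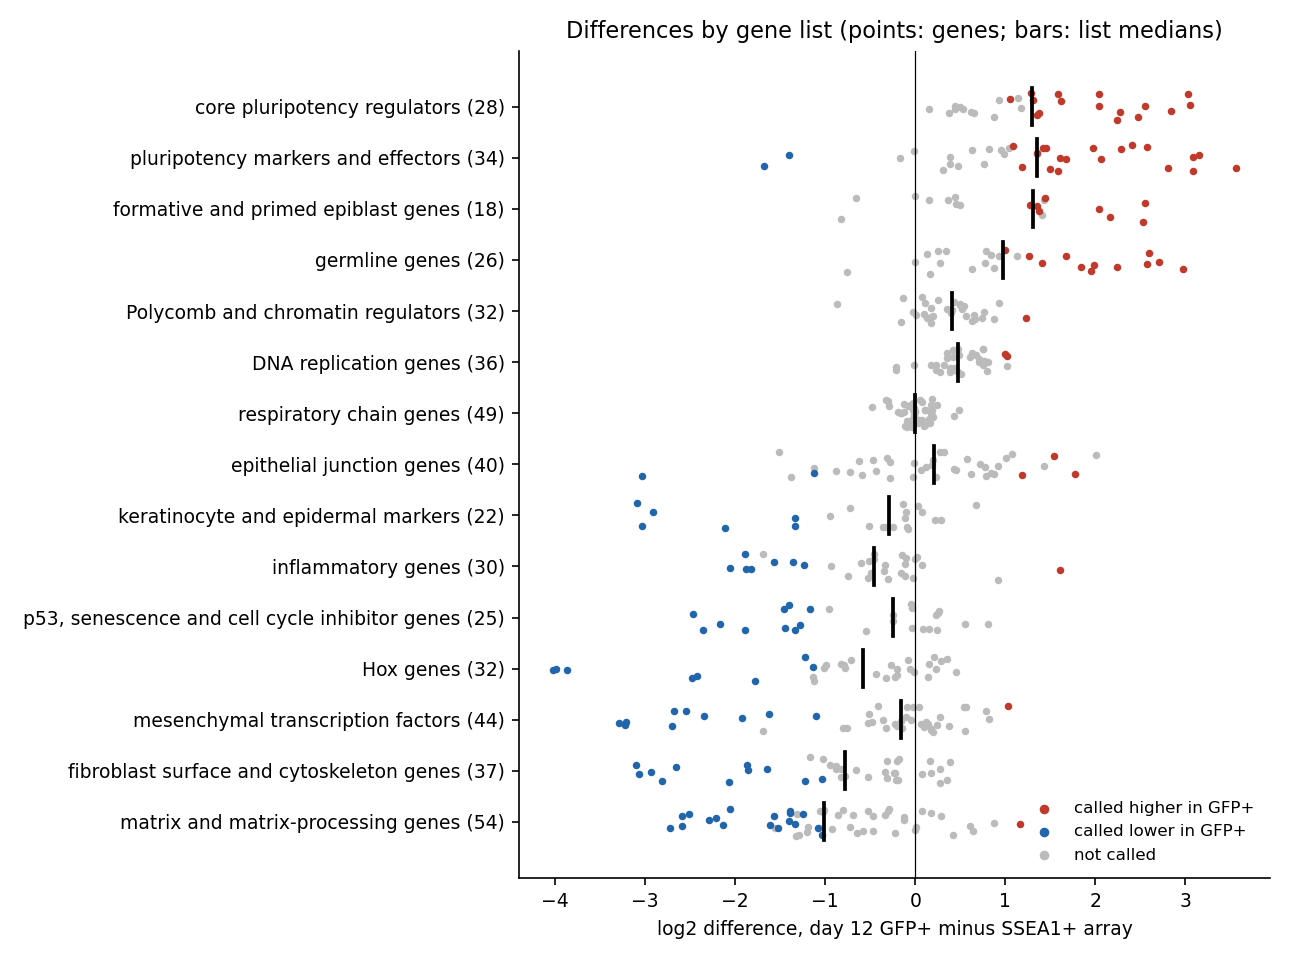
log2 difference between the GFP+ and SSEA1+ arrays (x axis) of each measured gene of 15 lists, with list sizes in brackets and bars at list medians. The medians run from 1.35 for pluripotency markers to -1.01 for matrix genes, and respiratory chain genes lie around 0.

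Of the 20 largest falls, 13 were of genes that had stood above both MEFs and iPS cells in SSEA1+ cells of days 3 to 9. Ehf, an ETS factor of epithelia, read 3.21 and 3.57 in MEFs, 7.73 (mean) on day 3, 9.25 (mean) on day 6 and 9.54 on day 9 in SSEA1+ cells, 9.08 on day 12, 3.61 in GFP+ cells and 3.13, 3.09 and 3.13 on the iPS arrays. Its difference of -5.46 ± 0.36 (SE; 44.1-fold, adjusted p = 7.83e-07) was the largest of all genes in either direction. GFP+ cells were close to the MEF level, while the GFP-negative cells of that day were near the level of day 9.

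To count such genes, those whose mean over the SSEA1+ arrays of days 3, 6 and 9 was at least 2 above the higher of the MEF and iPS means were taken, a rule that uses neither of the compared arrays but was set after the data had been seen. It held for 73 genes, of which 60 (82.2%) fell in GFP+ cells, against 4.73% of all genes. The rule admits only genes high in earlier SSEA1+ cells and low in iPS cells. Where GFP+ cells neared iPS cells, a fall was therefore largely built in. All genes also include dim ones with little room to fall, so the shares describe these genes and are no test. Their median difference was -2.30. The median level of the 73 genes was 4.94 in MEFs, 9.03 in day 9 and 8.91 in day 12 SSEA1+ cells, 6.47 in GFP+ cells and 5.41 in iPS cells, so GFP+ cells stood between the day 12 SSEA1+ array and iPS cells. With a margin of 1 in place of 2, 150 of 236 genes fell.

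They were of diverse function. Tbx21 (T-bet), a factor of T helper cells, went from 8.56 to 4.70 (-3.86 ± 0.35 (SE), adjusted p = 7.76e-06) and the acyl-CoA synthetase Acsbg1 from 9.17 to 5.34 (-3.83 ± 0.34 (SE)), both near their MEF levels (4.37 and 4.43, 4.95 and 4.09). Further examples were the claudin Cldn11 (8.44 to 4.47), the surface protein Cd109 (10.30 to 6.30), the RANK ligand Tnfsf11 (10.55 to 7.08) and Cd34 (9.56 to 6.62). Tmem35a, a chaperone of acetylcholine receptors, went from 9.59 to 5.57.

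Other genes of this kind were still above their level in iPS cells. Tac2, which encodes the tachykinin neurokinin B, read 3.53 and 3.54 in MEFs, 11.87 in SSEA1+ cells, 8.70 in GFP+ cells and 5.24, 5.49 and 4.94 on the iPS arrays. Krtdap, a secreted protein of differentiating keratinocytes, went from 11.80 to 9.18 (iPS 5.41 to 5.99), the aldehyde dehydrogenase Aldh3a1 from 11.26 to 8.41 (iPS 5.56 to 6.24) and Crym from 10.31 to 7.0 (iPS 5.86 to 6.05). The differences were -3.17 for Tac2, -2.62 for Krtdap, -2.85 for Aldh3a1 and -3.31 for Crym, and in each GFP+ cells were outside the range of the iPS and of the MEF arrays.

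**Figure D4:**
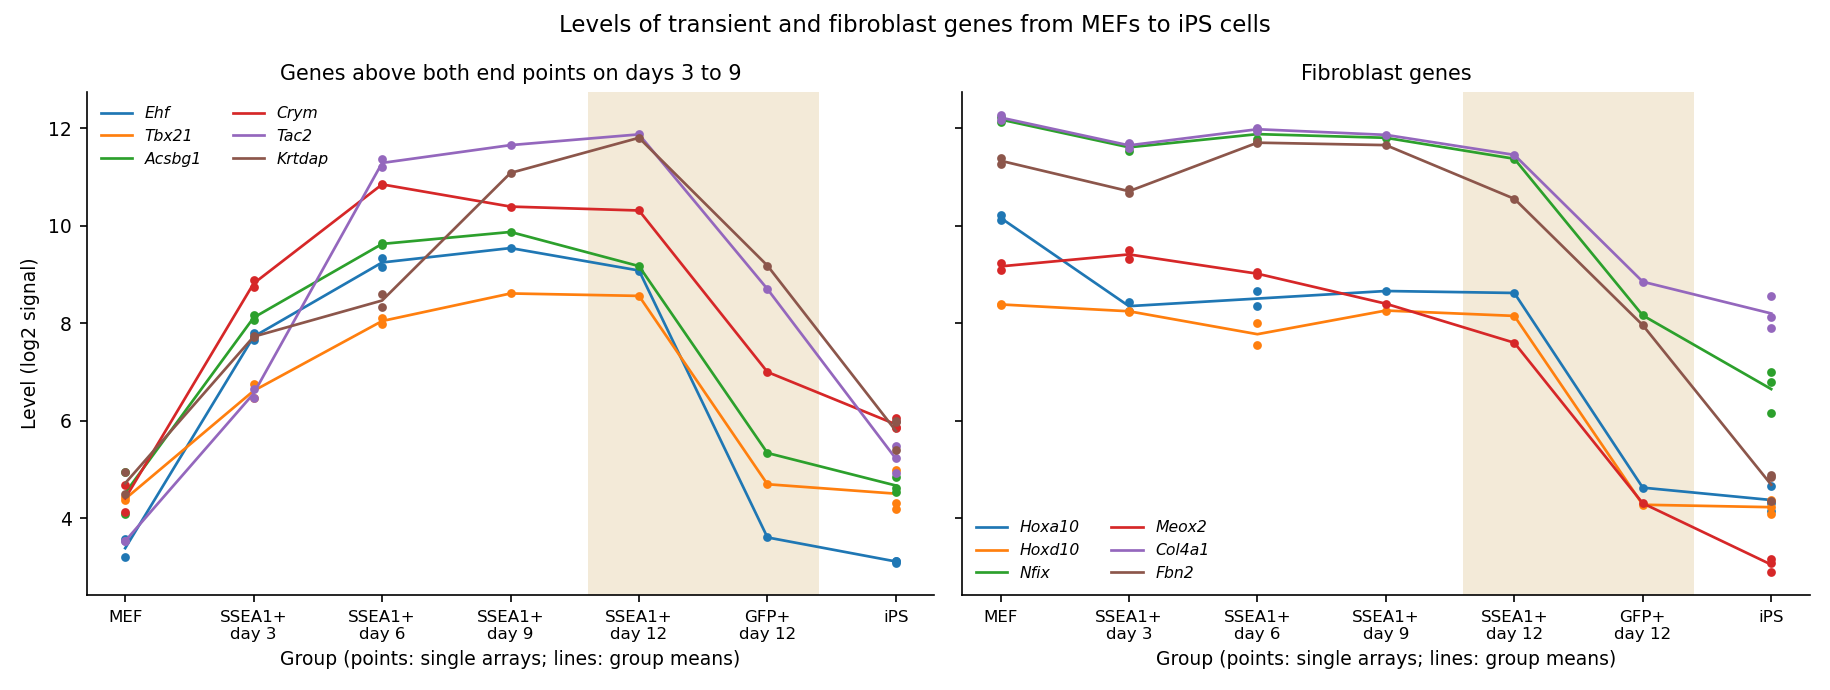
Levels (y axis, log2 signal) of genes that were above both end points in SSEA1+ cells on days 3 to 9 (left) and of fibroblast genes (right) by group, with a point per array and lines through group means; the compared fractions are shaded. Ehf stands at 9.08 in SSEA1+ cells and 3.61 in GFP+ cells, and Hoxa10 at 8.62 and 4.63.

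Some epidermal genes were among the falls. Of 22 measured keratinocyte and epidermal markers, 6 were called lower (27.3%, against 4.73% of all genes). An unadjusted p under 0.05 in either direction was reached by 9. A shorter epidermis list used to check cell types did not fall. Its 4 measured genes averaged 5.88 in SSEA1+ and 6.12 in GFP+ cells, with 0 called in either direction. Krt6b, a keratin of activated keratinocytes, read 3.12 and 3.03 in MEFs, 4.84 in day 9 and 6.66 in day 12 SSEA1+ cells, 3.57 in GFP+ cells and 3.07 to 3.2 on the iPS arrays, so that the day 12 SSEA1+ array was the high one (-3.09 ± 0.20 (SE), adjusted p = 7.83e-07). The desmosomal plaque protein Pkp1 went from 9.52 to 6.47, the galectin Lgals7 from 8.91 to 6.00 and the integrin Itgb4 from 8.91 to 6.80. Of 40 general epithelial junction genes, 3 were called higher (Cldn6, Dsg2 and Krt7) and 2 lower (Pkp1 and Ocln), with a median of 0.21. That is 7.5% and 5.0%, against 2.46% and 4.73% of all genes. The call of Krt7 was lost without an MEF or a day 3 array. Without either day 6 Thy1+ array 6 were called higher, and without the iPS array 1-3, 6 higher and 4 lower. A probe set of Dsg2 differed by 0.18. Cdh1 (E-cadherin) had 10.55 and 11.27 (adjusted p = 0.254).

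The mirror pattern was rarer. At least 2 below both end points in SSEA1+ cells of days 3 to 9 were 16 genes. Of them, 11 (68.8%) rose in GFP+ cells, against 2.46% of all genes, with a median difference of 1.92. The rule admits only genes low in earlier SSEA1+ cells and higher in iPS cells. Where GFP+ cells neared iPS cells, a rise was therefore largely built in, and the shares are no test. The share also depended on the margin. With a margin of 1 in place of 2 it was much smaller, as 40 of 148 genes rose. The fatty-acid binding protein Fabp3 read 8.78 and 8.21 in MEFs, 6.41 in day 9 and 9.71 in day 12 SSEA1+ cells, 12.17 in GFP+ cells and 12.35 to 12.96 on the iPS arrays. Mitf, a basic helix-loop-helix factor of pigment cells, went from 6.4 to 8.72 (MEFs 8.73 and 8.67) and the kinase gene Sgk1 from 9.23 to 11.16 (MEFs 11.70 and 11.65).

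Among 32 measured Hox genes, 8 were called lower and 15 had an unadjusted p under 0.05 in either direction, with a median of -0.58. Hoxa10 read 10.11 and 10.21 in MEFs, 8.66 in day 9 and 8.62 in day 12 SSEA1+ cells, 4.63 in GFP+ cells and 4.15, 4.31 and 4.67 on the iPS arrays. It fell by 3.99 ± 0.31 on the log2 scale (SE; 15.8-fold, adjusted p = 2.64e-06), from between the MEF and iPS arrays into the iPS range. Hoxd10 (8.15 to 4.28) and Hoxd9 (10.49 to 6.47) fell as far, with differences of -3.87 ± 0.21 (SE) and -4.02 ± 0.53 (SE), and Hoxd9 remained above its iPS arrays (5.04 to 5.87).

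Smaller falls were those of Hoxd8 (6.94 to 4.46), Hoxa5 (6.33 to 3.90), Hoxc4 (7.16 to 5.37), Hoxb3 (5.17 to 3.94) and Hoxa11 (5.04 to 3.90). Hoxc8 and Hoxb9, high in MEFs at 9.43 and 9.46 and at 8.55 and 8.49, had come down to 6.05 and 6.06 in SSEA1+ cells and differed by -1.13 and -0.27 (adjusted p = 0.138 and 0.681).

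Of 44 mesenchymal transcription factors, 10 were called lower and 1 higher, although their median was -0.16. Meox2, a homeobox factor of somite and limb muscle, read 9.10 and 9.23 in MEFs, 8.40 in day 9 and 7.60 in day 12 SSEA1+ cells, 4.31 in GFP+ cells and 3.17, 2.90 and 3.09 on the iPS arrays (-3.29 ± 0.24 (SE), adjusted p = 1.39e-06). The nuclear factor I genes moved alike: Nfix went from 11.37 to 8.16, Nfia from 8.49 to 5.27 and Nfib from 8.78 to 6.1. A further probe set each of Nfia and Nfib differed by 0.10 and 0.07 in the opposite direction, and 1 of Nfix by -0.24.

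Ebf3 went from 8.55 to 5.84, Tbx15 from 8.49 to 5.93 and Twist1, which drives epithelial-mesenchymal transition, from 9.36 to 7.43 (-1.93 ± 0.28 (SE), adjusted p = 0.000443). Runx1 went from 7.51 to 5.16 and lost its call with the mean of its probe sets. Creb3l1 was the gene called higher, at 4.85 and 5.88, far below its MEF arrays (9.25 and 9.35).

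Of 54 matrix genes, 18 were called lower and 1 higher, with a median of -1.01. The basement membrane collagen Col4a1 read 12.27 and 12.16 in MEFs, 11.86 in day 9 and 11.45 in day 12 SSEA1+ cells, 8.85 in GFP+ cells and 8.13, 7.91 and 8.56 on the iPS arrays, a difference of -2.59 ± 0.25 (SE; 6.03-fold, adjusted p = 1.43e-05). GFP+ cells were just above the iPS arrays. The fibrillin Fbn2 (10.55 to 7.96), Col6a3 (7.70 to 4.98) and the proteoglycan Fmod (9.14 to 7.0) fell as well, with differences of -2.59, -2.72 and -2.14. For Fbn2, GFP+ cells stood far above the iPS arrays (4.35 to 4.88), and for Col6a3 below them (5.09 to 6.48).

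The main fibrillar collagens, which had come down earlier, had smaller differences: Col1a1 read 13.18 and 13.21 in MEFs, 9.46 in SSEA1+ cells and 8.61 in GFP+ cells (adjusted p = 0.271), and Col3a1 10.06 and 8.87 (adjusted p = 0.11). Vcan, a large proteoglycan, was the matrix gene called higher (7.25 to 8.40), with 8.01 to 8.27 on the iPS arrays. Dcn, Fbln5 and Sparc were called lower (-1.39, -1.08 and -1.04), calls that were lost after median subtraction.

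Among 37 fibroblast surface and cytoskeleton genes, 11 were called lower and 20 had an unadjusted p under 0.05 in either direction, with a median of -0.78. The hyaluronan receptor Cd44 read 10.62 and 10.60 in MEFs, 9.56 in SSEA1+ cells, 6.47 in GFP+ cells and 7.17, 6.99 and 8.19 on the iPS arrays (-3.10 ± 0.47 (SE), adjusted p = 0.000635). GFP+ cells were thus below every iPS array. The caveolar proteins Cav1 (6.98 to 4.91) and Cav2 (7.27 to 4.20) went further in this direction, with 8.06 to 9.42 and 6.72 to 7.76 on the iPS arrays, although the other probe set of Cav2 differed by -0.05. Smooth muscle genes fell as well, Actg2 from 10.76 to 8.10 and Acta2 from 11.41 to 9.54 (other probe set -0.16).

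Of 35 genes of TGF-beta and BMP signalling, 5 were called lower and 2 higher (14.3% and 5.71%, against 4.73% and 2.46% of all genes). Receptor Tgfbr2 read 10.82 and 10.73 in MEFs, 9.28 in SSEA1+ cells, 6.63 in GFP+ cells and 5.44 to 6.51 on the iPS arrays (-2.66 ± 0.35 (SE), adjusted p = 0.000204), although 1 of its 3 probe sets differed by 0.23 and the mean of them was not called. The target gene Tgfbi, the ligand-binding protein Ltbp1 and the follistatin-like Fstl1 fell, with differences of -1.70, -1.64 and -1.74. Acvr2b, an activin receptor through which Nodal acts, rose from 7.07 to 8.49, and the ligand Bmp7 from 5.59 to 7.26, a call lost with the mean of its probe sets.

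Of 25 p53, senescence and cell cycle inhibitor genes, 10 were called lower and 12 had an unadjusted p under 0.05 in either direction, while the median was -0.25. Cdkn2a, the Ink4a/Arf locus, read 9.01 and 8.78 in MEFs, 9.35 in day 9 and 8.50 in day 12 SSEA1+ cells, 6.15 in GFP+ cells and 7.40, 6.75 and 7.46 on the iPS arrays. The difference was -2.36 ± 0.29 (SE; adjusted p = 0.000123), to below each iPS array. Its neighbour Cdkn2b went from 7.73 to 5.84, the death receptor gene Fas, a p53 target, from 8.71 to 6.24 (-2.47 ± 0.32 (SE)), Cdkn1a (p21) from 10.97 to 9.56 and Rb1 from 9.75 to 8.30.

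D-type cyclins did not move together. Ccnd2 went from 12.42 to 10.26 (-2.17 ± 0.28 (SE), adjusted p = 0.000179), with 8.04 to 8.76 on the iPS arrays. Ccnd1 differed by -1.17, a call lost after median subtraction, and Ccnd3 by 0.81. The inhibitors Cdkn1b, Cdkn1c and Cdkn2d differed by 0.25, 0.23 and -0.04 and were not called. Other p53 targets were not called either, with Mdm2 at 10.88 and 10.84 and Trp53inp1 at 11.59 and 11.34. Mitotic and replication genes had mostly small differences above 0, with medians of 0.37 and 0.48 and 5 and 18 genes at an unadjusted p under 0.05. Called higher were 2 of 35 (Bub1 and Ccnf, 5.71%) and 2 of 36 (Cdc6 and Pole2, 5.56%), against 2.46% of all genes. Bub1 was not called after quantile normalization.

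Inflammatory genes had 7 of 30 called lower and 1 higher, with a median of -0.46. The chemokine Cxcl14 went from 8.75 to 6.87, Ccl2 from 8.13 to 6.77 and the acute-phase gene Serpina3n from 6.87 to 4.99 (-1.88 ± 0.21 (SE), adjusted p = 5.63e-05). The adhesion receptor Icam1 rose from 6.93 to 8.54, with 10.07 to 10.28 on the iPS arrays. Of 23 measured imprinted genes, 2 were called lower and 2 higher, with a median of -0.04. That is 8.7% each, against 4.73% and 2.46% of all genes. Dlk1 fell from 9.10 to 6.44 and Igf2 from 10.63 to 8.40 (limma adjusted p = 0.0464, a call lost under most alternatives). Phlda2 rose from 6.69 to 7.75 and Magel2 from 5.46 to 6.51. Without the dimmest 25% of genes 1 imprinted gene was called higher.

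Metabolic lists had no called genes, where 7.18% of all genes were called. At that share a short list can hold none. With limma 0 of 20 glycolysis genes were called (5 at an unadjusted p under 0.05; 1 was called after median subtraction), and 0 of 49 respiratory chain genes (0 at an unadjusted p under 0.05), whose differences ran from -0.48 to 0.49. Among housekeeping genes 0 of 10 were called (1 at an unadjusted p under 0.05), and among macrophage and blood markers 0 of 24 (1), where leaving out a day 6 Thy1+ or Thy1-negative array or the iPS array 1-5 gave 1 call. Of 21 ribosome biogenesis genes 1 was called higher (4.76%, against 2.46% of all genes). It was Rrp12, which lost its call under several alternatives.

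Of 18 extraembryonic endoderm markers, 2 were called higher (Foxa2 and Apoe) and 2 lower (Lama1 and Col4a1). That is 11.1% each way, against 2.46% and 4.73% of all genes. Foxa2, a pioneer factor of endoderm, read 4.02 and 4.02 in MEFs, 4.33 in SSEA1+ cells, 6.08 in GFP+ cells and 3.74, 4.10 and 3.97 on the iPS arrays (difference 1.75 ± 0.23 (SE), adjusted p = 0.000198), while Gata6, Sox17, Sox7 and Afp were dim in GFP+ cells. Neurod1, a neuronal factor, went from 4.40 to 6.18 and was higher still on the iPS arrays (7.62 to 8.35), with another probe set at 0.33. Of 21 muscle markers 4 were called higher (against 2.46% of all genes), Actc1, Myh3, Tnnt1 and Mylpf, and Mylpf, a myosin light chain, had the largest difference (2.06), from 6.63 to 8.68, with 10.38 to 10.44 on the iPS arrays. Without the dimmest 25% of genes 2 muscle markers were called. Of 17 trophoblast markers, Eomes and Krt7 were called higher and Tfap2a lower. Of 17 endothelial markers, Pecam1 (4.18 to 5.60) and Vwf (5.19 to 6.4) were called higher and the receptor Tek (10.67 to 8.17) lower. In either list that is 11.8% higher and 5.88% lower, the latter near the 4.73% of all genes. The 2 endothelial markers called higher were not tested or not called without the dimmest 25% of genes. Of 20 neural markers Neurod1 was called higher (5.0%) and Elavl4 and Neurog2 lower (10.0%). The 4 neuron markers used to check cell types averaged 7.75 in SSEA1+ and 7.82 in GFP+ cells.

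Xist, the RNA that coats the inactive X chromosome, read 11.05 and 11.42 in MEFs, 11.42 in SSEA1+ cells, 10.87 in GFP+ cells and 7.57, 7.76 and 7.81 on the iPS arrays. The difference between the compared fractions was -0.55 ± 0.23 (SE; adjusted p = 0.181), and GFP+ cells kept a level near that of MEFs. The labels do not give the sex of the embryos.

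Set against the difference between iPS cells and MEFs, which shares no array with the comparison and called 3631 genes (30.8%), most called genes pointed the same way. Of the 290 genes higher in GFP+ cells, 208 (71.7% of them, and 11.4% of the 1824 genes higher in iPS cells) were called higher in iPS cells than in MEFs, where 15.4% of all genes were. Of the 558 lower genes, 347 (62.2%, and 19.2% of the 1807 genes lower in iPS cells) were called lower in iPS cells, where 15.3% of all genes were. The 20 largest rises, led by Zfp936 (4.97 to 8.6), Hesx1 (4.83 to 8.41) and Morc1, were all higher in iPS cells. Of the 20 largest falls 10 were lower in iPS cells and 1 higher.

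An index placed each array between the MEF mean (0) and the iPS mean (1), over the genes called between those groups. On the 1807 genes lower in iPS cells, SSEA1+ cells stood at 0.570 on day 9 and 0.642 on day 12 and GFP+ cells at 0.883, with 0.944 to 1.05 on the iPS arrays. On the 1824 genes higher in iPS cells, GFP+ cells stood at 0.827 and the iPS arrays at 0.964 to 1.04. GFP+ cells were below the lowest iPS array on both. The iPS arrays helped to choose these genes and set the value of 1, so they lie near 1 by construction, and the gap was not tested. The other fractions of day 12, Thy1+ and Thy1-negative, had 0.119 and 0.371 on the lower genes.

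**Figure D5:**
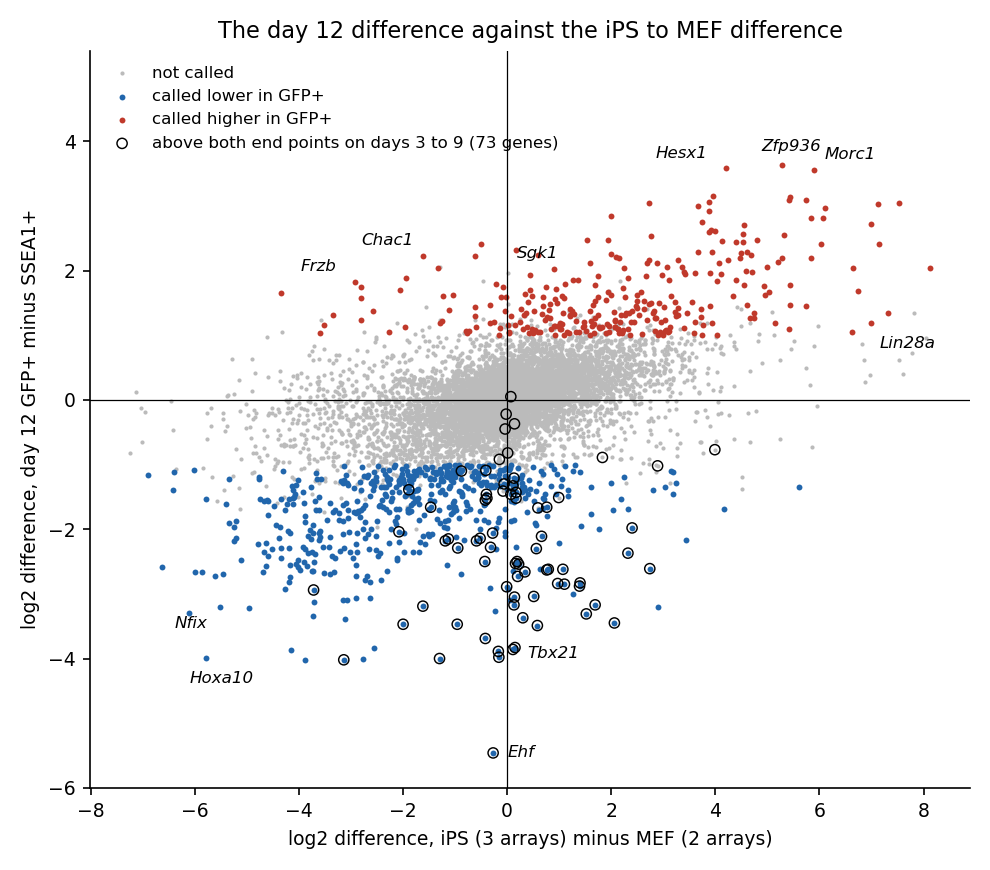
log2 difference between the GFP+ and SSEA1+ arrays (y axis) against that between iPS cells and MEFs (x axis) for all 11807 genes, with called genes coloured and the 73 genes above both end points on days 3 to 9 ringed. Called genes lie mostly in the upper right and lower left, and the ringed genes have Ehf as the lowest, with 13 of them called higher and 10 lower in iPS cells than in MEFs.

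A smaller set went the opposite way. Among the 290 genes higher in GFP+ cells, 20 (6.9%) were lower in iPS cells than in MEFs, against 15.3% of all genes. Among the 558 lower ones, 38 (6.81%) were higher in iPS cells, against 15.4% of all genes. Opposite calls were thus rarer than over all genes. A further 62 (21.4%) of the higher and 173 (31.0%) of the lower genes were not called between iPS cells and MEFs. Chac1, an enzyme that breaks down glutathione, read 8.95 and 9.11 in MEFs, 5.18 in day 9 and 6.66 in day 12 SSEA1+ cells, 8.88 in GFP+ cells and 7.20 to 7.61 on the iPS arrays. It had passed below its iPS level in SSEA1+ cells and stood above it in GFP+ cells (difference 2.23 ± 0.49 (SE), adjusted p = 0.00852). Atp12a, a proton pump, went from 7.96 to 4.51, Gna14 from 10.49 to 7.29 and Ampd3 from 8.61 to 5.61, with iPS arrays at 5.09 to 5.68, 7.67 to 8.68 and 7.59 to 8.15.

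Some levels on the GFP+ array lay outside those of every other array. Among the called genes, 87 of the 290 higher ones were above every other array, 14 of them by at least 1. Below every other array were 162 of the 558 lower ones, 22 of them by at least 1. The lone GFP+ array entered both the calls and these extremes, and so would an error of it. Such extremes were therefore partly built in, and the counts are no test. Over all 11807 genes, GFP+ cells were above every other array in 1175 and below in 820. The monoacylglycerol acyltransferase Mogat2 was 2.13 above the next array, at 8.19 against 5.79 in SSEA1+ cells and 5.00 to 5.65 on the iPS arrays. Pim2 (2.04), the X-linked Xlr4b (1.95, at 6.47 against 4.25 in SSEA1+ cells), Otx2 (1.75), the sulfotransferase Chst1 (1.5) and the growth factor Fgf15 (1.37) followed. On the low side were Cav2 (2.52 below the next array), Cav1 (2.07), S100a4 (1.87) and Rbl2 (1.69), a pocket protein of the cell cycle, at 5.09 against 6.78 in SSEA1+ cells and 6.96 to 7.47 on the iPS arrays. The other probe sets of Cav2 and Rbl2 differed by -0.05 and -0.44.

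Between iPS cells and GFP+ cells, 854 genes (7.23%) were called, 471 higher and 383 lower in iPS cells. As this comparison shares the GFP+ array, its values are given beside those above and not counted against them. The germline genes Ddx4, Dazl, Hormad1 and Rnf17 were named above with GFP+ levels below each iPS array. They were 3.75, 2.46, 2.60 and 2.45 higher in iPS cells than in GFP+ cells, all called. Rhox5, of the same list, was lower on each iPS array than in GFP+ cells. Otx2, Pim2 and Car14, named above with GFP+ levels over those of every iPS array, had differences of -1.97, -2.59 and -2.59, all called. The direction of these genes and of the 4 germline genes follows from how they were chosen. An error of the lone GFP+ array would enter both comparisons. Tac2 and Krtdap differed by -3.47 and -3.39 and Xist by -3.16, all called. Zfp42, Dppa4 and Lefty1 differed by 0.81, 0.24 and -0.14 and were not called.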

How the data were processed

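The authors' deposited values are log2 signals for each probe set; the submitters' processing notes name RMA, without a version, and no further scaling was applied. The number of arrays limits precision. Of 22716 probe sets, 18003 carried 1 gene symbol in the array annotation, 287 several and 4426 none (90 controls included), and 0 were updated to a newer symbol. Where a gene had several probe sets, the one with the highest mean was used (11807 genes). Tests used limma 3.58.1 under R 4.3.3, fitting 15 group means to 24 arrays (9 residual and 4.68 prior degrees of freedom), with Benjamini-Hochberg adjustment over all genes; a call needed adjusted p under 0.05 and at least 2-fold. Tested on simulated data for the GFP+ against SSEA1+ comparison (200 of 11807 genes changed), the fit recovered 87% of log2 changes of 1.5 and 100% of changes of 3. False calls numbered 2 and 4. The simulation gave the lone arrays the spread of the replicated groups, so it cannot test that assumption. No replicate arrays were identical.

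The members, gene lists and rules were chosen with earlier results of these data known. Named genes are the 20 largest called differences in each direction, list members, the 10 called genes in each direction farthest outside the other 23 arrays, the 10 largest called opposite to iPS against MEF, and examples of the genes above or below both end points. Motifs were searched in RefSeq promoter windows. Alternatives changed the fold, threshold, dim-gene filter, scaling, probe-set choice, variance prior, replicate block, groups and arrays. Tables and figures used Python 3.11.15, pandas 2.3.3, numpy 2.4.6 and matplotlib 3.10.9.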

Additional observations from a re-analysis of the deposited data

How the results depend on the processing

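The count of 848 genes called between GFP+ and SSEA1+ cells stayed within 1.5 times of itself under every alternative run: 753 without the dimmest 25% of genes, 898 after quantile normalization, 867 after median subtraction, 769 with the mean of probe sets, 847 with a trended and robust prior, 897 in the fit of SSEA1+, GFP+ and iPS groups alone, 1194 with no minimum fold, 649 at adjusted p under 0.01 and 806 to 991 when 1 array was left out. Of 215 named called genes, 188 were called in every alternative that tested them and 0 changed direction, counted over these alternatives other than the changed fold and p thresholds. With a replicate block (M2 or M3 as a term) 839 genes were called, 830 of them among the 848. The deviations of same-named arrays correlated at -0.207 to 0.214 over 21 pairs of groups (5 above 0.1), so no effect shared by same-named arrays stood out. As each deviation rests on single arrays, this cannot tell whether same-named samples came from the same animal or culture. Between day 9 and day 12 SSEA1+ cells, 59 to 113 genes were called when 1 array was left out, the 113 without either day 6 Thy1+ array, against 68; that group's arrays differ most from each other. Lone arrays limit the comparison: no alternative could leave out either compared array, and dim genes have little signal over background.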
